A study of Mus musculus with 7 samples.

Results

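The genes described here are 10 members of the BCL2 family, which sets whether a cell lives or dies by apoptosis, measured in mouse knee cartilage after joint injury. They are the paralogs Bcl2a1a, Bcl2a1b and Bcl2a1d, the survival members Bcl2, Bcl2l1 and Mcl1, the effectors Bax and Bak1, and the BH3-only members Bcl2l11 and Bid. They were found by exact gene name among the 55401 genes of the count table, and all 10 were among the 16429 genes with a counts-per-million value (CPM) above 1 in at least 2 samples. Bcl2a1a and Bcl2a1d were selected on their difference between WT and Trpc1-/- in these same samples, and the other 8 were added by name as their family. The genotype values of the 10 members are therefore a description and carry no test.

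Male mice of a C57BL/6J colony had DMM, a meniscus operation that leads to osteoarthritis, in the right knee at the age of 10 weeks. The RNA came from articular cartilage of that knee, of both femur and tibia, 2 weeks later. The labels give 4 samples from WT mice and 3 from Trpc1-/- mice, a global knockout (Trpc1tm1Lbi) that lacks exon 8 of the gene for the calcium channel TRPC1, and each sample pooled 2 to 3 mice. The study's methods name subchondral bone beside the cartilage as a source of the RNA, and they state the group sizes the other way round from the labels, which were used here.

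Library totals were 52142451, 99831099, 116815517 and 75284143 counts for WT replicates 1 to 4, against 118254070, 94972137 and 106517535 counts for Trpc1-/- replicates 1 to 3. WT replicate 1 stood apart from the other 6 libraries. It had the lowest total, the mitochondrial ribosomal RNA mt-Rnr2 took 19.6% of its counts against 12.3% to 15.4% elsewhere, and its mean correlation with the other libraries was 0.947 against 0.973 to 0.980. Each logFC named below that turned sign or moved by over 1.5 times without this library is given both ways.

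The targeted gene was examined first. Trpc1 was at 4.83, 4.55, 4.77 and 4.33 CPM in WT replicates 1 to 4 and at 3.35, 3.79 and 3.04 CPM in Trpc1-/- replicates 1 to 3, with CPM scaled by TMM factors here and throughout. Every Trpc1-/- sample lay below every WT sample, and logFC (log2 of Trpc1-/- over WT) was -0.44 with an SE of 0.13. The adjusted P was 0.407 by edgeR and 0.05001 by DESeq2, above the threshold of 0.05, and 1 of 13 DESeq2 fits called it, without Trpc1-/- replicate 2 (adjusted P by DESeq2 0.0298). These counts cover the whole gene, so reads from exons outside the deleted one are included. The chondrocyte genes that check the tissue label were all measured. Col2a1, the collagen of cartilage matrix, was at 2697 to 3300 CPM in WT, and Acan, the gene for aggrecan, was at 580.1 to 705 CPM. Haemoglobin and neutrophil genes stood at still higher summed levels, as given with the marker genes further on.

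Proteins of the BCL2 family meet at the outer mitochondrial membrane. The survival members bind and hold the effectors BAX and BAK, which otherwise form pores, release cytochrome c and start the caspases. BH3-only members such as BIM, the product of Bcl2l11, and BID release the effectors by binding the survival members or by acting on BAX and BAK directly. A1, the product of the Bcl2a1 genes, is a survival member found mainly in blood cells, where NF-kB and GM-CSF signalling induce it. The gene was duplicated in the mouse into near-identical copies. Of the other survival members, BCL-XL (Bcl2l1) is needed by red cell precursors and is made by chondrocytes, and MCL1 is a short-lived protein that neutrophils and many other cells depend on. BCL2 itself also sits on the ER, where it acts on calcium release.

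The 3 Bcl2a1 paralogs lie together on chromosome 9 in GRCm38, in annotated protein-coding genes: Bcl2a1d at chr9:88723285-88731914 on the minus strand, Bcl2a1a at chr9:88956900-88962419 and Bcl2a1b at chr9:89199209-89207827 on the plus strand. Each has a coding sequence of 519 bases. The first 120 coding bases of each are shown because 7 of the 12 coding positions that differ among the copies fall there, and these positions are in capitals.
Bcl2a1a: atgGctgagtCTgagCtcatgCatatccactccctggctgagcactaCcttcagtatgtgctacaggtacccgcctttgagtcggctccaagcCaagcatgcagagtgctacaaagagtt
Bcl2a1b: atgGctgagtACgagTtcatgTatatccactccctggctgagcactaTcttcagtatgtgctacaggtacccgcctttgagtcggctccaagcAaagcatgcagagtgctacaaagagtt
Bcl2a1d: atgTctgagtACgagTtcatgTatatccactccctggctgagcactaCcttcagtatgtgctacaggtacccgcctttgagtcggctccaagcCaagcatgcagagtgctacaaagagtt

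Over the whole coding sequence Bcl2a1a and Bcl2a1d differed at 7 positions (98.65% identical), Bcl2a1a and Bcl2a1b at 11 (97.88%), and Bcl2a1d and Bcl2a1b at 6 (98.84%). Counted from the first base of the start codon and written with the Bcl2a1a base first, the differences from Bcl2a1d include G4T, C11A, T337G and A407G, and those from Bcl2a1b include C48T, C94A and A490T. A base found in Bcl2a1a alone occupied 6 of the 12 positions, one found in Bcl2a1b alone 5, and one found in Bcl2a1d alone 1. After position 94 the copies share 217 coding bases without a difference, a stretch longer than a read. The second region shown, coding bases 361 to 480, holds 2 more of the differing positions.
Bcl2a1a: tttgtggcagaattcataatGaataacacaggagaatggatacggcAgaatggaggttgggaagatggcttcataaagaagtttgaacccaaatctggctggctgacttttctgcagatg
Bcl2a1b: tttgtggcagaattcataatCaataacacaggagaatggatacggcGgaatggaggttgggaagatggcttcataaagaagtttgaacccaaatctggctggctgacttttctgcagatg
Bcl2a1d: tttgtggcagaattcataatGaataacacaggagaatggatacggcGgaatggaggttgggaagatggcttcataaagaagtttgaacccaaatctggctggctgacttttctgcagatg

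Reads were sequenced in pairs, each 75 bases long. Of all stretches of 75 bases in the annotated transcript, those of Bcl2a1a occurred also in Bcl2a1d for 53.8% and in Bcl2a1b for 25.6%. Stretches found in no other copy made up 44.8% of Bcl2a1a, 56.5% of Bcl2a1b and 32.4% of Bcl2a1d. These shares treat each read alone, without the other read of its pair. How the reads were divided among the copies when the counts were made is therefore uncertain, most of all between Bcl2a1a and Bcl2a1d. The sum over the 3 is given beside the copies, and since the treatment of reads that fit several copies cannot be seen from the counts, the sum may be affected as well.

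Bcl2a1a was at 0.801, 1.05, 1.32 and 1.21 CPM in WT replicates 1 to 4 and at 1.98, 1.78 and 2.27 CPM in Trpc1-/- replicates 1 to 3. Bcl2a1d was at 1.01, 0.984, 1.17 and 1.08 CPM in WT and at 1.94, 1.67 and 2.06 CPM in Trpc1-/-. For both genes each Trpc1-/- sample lay above each WT sample. Bcl2a1b, the copy with the highest count, was at 2.66, 3.70, 4.03 and 4.10 CPM in WT and at 4.22, 3.24 and 3.46 CPM in Trpc1-/-. Its groups overlapped, with WT replicate 1 the lowest and Trpc1-/- replicate 1 the highest of the 7 samples.

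Bcl2a1a averaged 1.09 ± 0.225 CPM over the WT samples (SD, n = 4) against 2.01 ± 0.248 CPM for Trpc1-/- (SD, n = 3), and logFC was 0.87 (SE 0.21). Bcl2a1d gave 1.06 ± 0.084 and 1.89 ± 0.198 CPM, with a logFC of 0.83 (SE 0.17). Bcl2a1b gave 3.62 ± 0.666 and 3.64 ± 0.515 CPM, with a logFC of 0.00 (SE 0.19). Without WT replicate 1, logFC was 0.75 (SE 0.18) for Bcl2a1a, 0.80 (SE 0.17) for Bcl2a1d and -0.12 (SE 0.14) for Bcl2a1b. Here and below, a range over 16 alternatives covers other tools, normalizations and filters, samples left out, the replicate block and the range of library numbers described with the sum. Over these, logFC ran from 0.75 to 1.11 for Bcl2a1a, from 0.77 to 0.92 for Bcl2a1d and from -0.12 to 0.19 for Bcl2a1b, which took both signs.

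**Figure D1:**
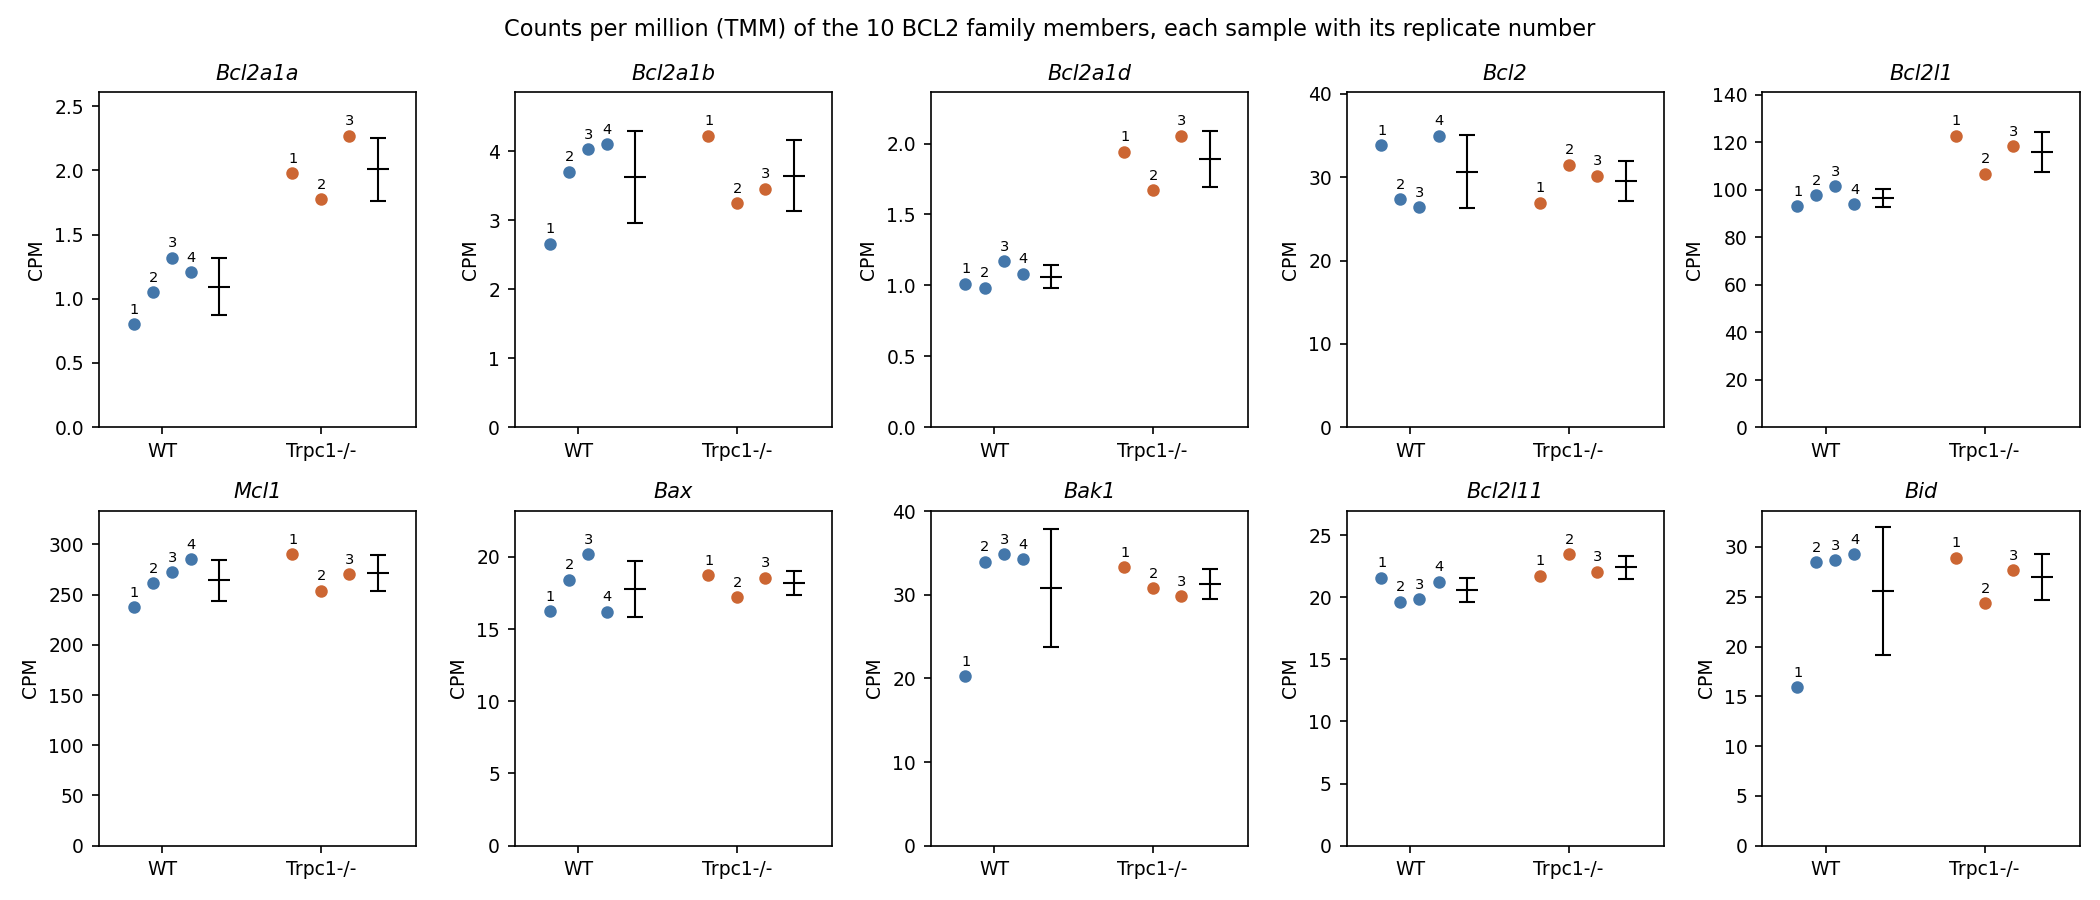
CPM (y axis) of each of the 10 members in WT (blue, n = 4) and Trpc1-/- samples (orange, n = 3), each point numbered by replicate, with the mean ± SD beside the points. Bcl2a1a, Bcl2a1d, Bcl2l1 and Bcl2l11 have no Trpc1-/- point at or below a WT point, and WT replicate 1 is the low point of Bak1 and Bid.

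The copies Bcl2a1a and Bcl2a1d had nearly equal counts in most libraries. Their ratio lay between 0.792 in WT replicate 1 and 1.13 in WT replicate 3, and between 1.02 and 1.10 in Trpc1-/-. The count of Bcl2a1b over that of Bcl2a1a and Bcl2a1d together was 1.47, 1.82, 1.62 and 1.79 in WT replicates 1 to 4, and 1.08, 0.941 and 0.799 in Trpc1-/- replicates 1 to 3. Bcl2a1b so made up 62.5% ± 2.36 (SD, n = 4) of the summed count in WT and 48.2% ± 3.73 (SD, n = 3) in Trpc1-/-, and the groups did not overlap. Because both copies were selected for their difference, this shift in the division follows from the selection in part and was not tested.

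**Figure D2:**
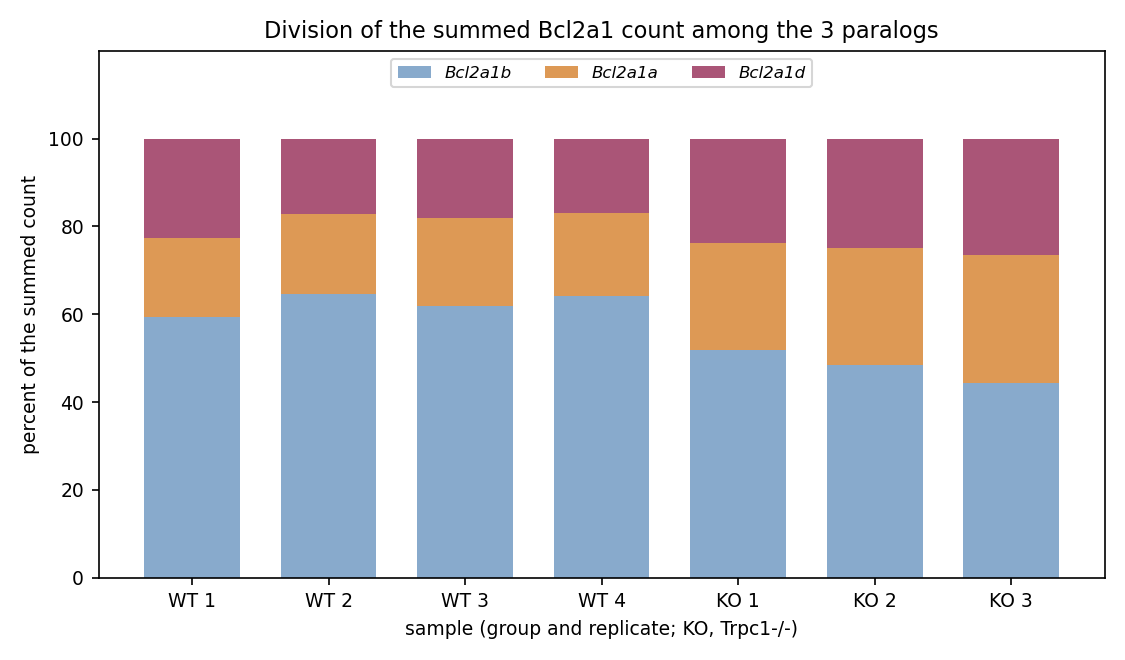
Share of Bcl2a1b, Bcl2a1a and Bcl2a1d in their summed count (y axis, percent) for each of the 7 samples. Bcl2a1b takes 59.4% to 64.5% in the WT samples and 44.4% to 51.9% in the Trpc1-/- samples (KO).

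Summed over the 3 paralogs, the level was 4.47, 5.73, 6.52 and 6.39 CPM in WT and 8.14, 6.69 and 7.78 CPM in Trpc1-/-. The lowest Trpc1-/- sample, replicate 2, was close above the highest WT sample, replicate 3. The means were 5.78 ± 0.938 CPM (SD, n = 4) and 7.54 ± 0.756 CPM (SD, n = 3), a ratio of 1.30, with a logFC of 0.38 (SE 0.15). It was 0.28 (SE 0.10) without WT replicate 1. The labels number the Trpc1-/- libraries and WT replicates 1 and 2 in one range and WT replicates 3 and 4 in another, and within the first range logFC was 0.56 (SE 0.18). The second range holds WT samples alone. The samples are bulk tissue, in which more cells of a type and more RNA per cell cannot be told apart, for these genes and for those that follow. A further copy, Bcl2a1c, had 0, 2, 0 and 3 counts in WT and 0 in each Trpc1-/- library, at or below the level of 3 counts taken as the floor.

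The promoters of the paralogs are near copies as well. Bcl2a1a and Bcl2a1b were identical at 99.2% of 256 aligned bases with no gap. Bcl2a1d has a gap of 6 bases against each of them, and over the bases that both copies hold it was 98.0% identical to Bcl2a1a and 98.8% identical to Bcl2a1b. A stretch of 68 bases from each is shown because it holds this gap, with the letters GAGGAAGT, the core bound by ETS factors such as PU.1, in capitals: chr9:88956786-88956853 (plus strand) for Bcl2a1a, chr9:89199095-89199162 (plus strand) for Bcl2a1b and chr9:88731917-88731984 (minus strand) for Bcl2a1d, all in GRCm38.p6.
Bcl2a1a: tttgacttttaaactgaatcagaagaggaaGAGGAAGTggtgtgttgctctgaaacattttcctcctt
Bcl2a1b: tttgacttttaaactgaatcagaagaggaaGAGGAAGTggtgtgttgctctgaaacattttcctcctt
Bcl2a1d: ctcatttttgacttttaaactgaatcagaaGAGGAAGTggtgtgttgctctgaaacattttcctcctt

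Searched on both strands, GAGGAAGT was in the promoters of all 3 paralogs and of Bak1, and in 3.20% of 32851 promoter windows of the same length. The NF-kB consensus was in none of the 3 paralog windows and in 1 of 3 windows of Bcl2l1, against 8.46% of all windows. These windows hold only sequence near the gene start, so sites farther away were not searched. A further sequence searched, TGANTCA with N for any base, was in all 3 paralog windows. No other member had it, and 7.81% of all windows did. A match is a description of the letters and not of a bound site.

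The other survival members were measured at far higher counts. Bcl2l1 (chr2:152780668-152831728), which encodes BCL-XL, was at 93.1, 97.5, 102 and 93.8 CPM in WT replicates 1 to 4 and at 123, 107 and 118 CPM in Trpc1-/- replicates 1 to 3. Here too each Trpc1-/- sample lay above each WT sample in CPM, by a smaller fold. This did not hold under the other scaling of the samples given further on. WT averaged 96.5 ± 3.90 CPM (SD, n = 4) against 116 ± 8.29 CPM (SD, n = 3), with a logFC of 0.26 (SE 0.08), and of 0.24 (SE 0.07) without WT replicate 1.

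Mcl1 (chr3:95658788-95663176) was at 238, 262, 272 and 285 CPM in WT and at 290.2, 254 and 271 CPM in Trpc1-/-. Its groups overlapped, and its logFC of 0.04 (SE 0.10) was -0.01 (SE 0.07) without WT replicate 1 and ran from -0.02 to 0.12 over the alternatives. Bcl2 (chr1:106538178-106714274) was at 33.8, 27.3, 26.4 and 35.0 CPM in WT and at 26.9, 31.5 and 30.2 CPM in Trpc1-/-. The WT samples alone spanned the Trpc1-/- values, and logFC was -0.05 (SE 0.12), or 0.00 (SE 0.12) without WT replicate 1, and from -0.12 to 0.02 over the alternatives.

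Of the effectors, Bax (chr7:45461697-45466898) lay between 16.2 and 20.2 CPM in WT and between 17.2 and 18.7 CPM in Trpc1-/-, with a logFC of 0.03 (SE 0.10) that was -0.01 (SE 0.09) without WT replicate 1 and ran from -0.03 to 0.10 over the alternatives. Bak1 (chr17:27019810-27029009) was at 20.2 CPM in WT replicate 1 and at 33.9, 34.8 and 34.3 CPM in WT replicates 2 to 4, beside 33.3, 30.8 and 29.8 CPM in Trpc1-/-. With all samples logFC was 0.02 (SE 0.18), and without WT replicate 1 it was -0.14 (SE 0.06), with every Trpc1-/- sample below the 3 WT samples left. Over the alternatives it ran from -0.14 to 0.21, the highest within the first range of library numbers.

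The BH3-only members Bcl2l11 and Bid did not share a pattern. Bcl2l11 (chr2:128126038-128162547), the gene for BIM, was at 21.6, 19.6, 19.8 and 21.3 CPM in WT and at 21.7, 23.5 and 22.1 CPM in Trpc1-/-. No Trpc1-/- sample lay below a WT sample, though replicate 1 of each group were nearly equal, and logFC was 0.12 (SE 0.07), from 0.07 to 0.15 over the alternatives. Bid (chr6:120891930-120916853), whose product links death receptors to mitochondria, was at 15.9 CPM in WT replicate 1, at 28.5 to 29.3 CPM in the other WT samples and at 28.9, 24.4 and 27.7 CPM in Trpc1-/-. Its logFC was 0.07 (SE 0.20) with that library and -0.10 (SE 0.07) without it, and it ran from -0.10 to 0.28 over the alternatives.

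Among the 10 members, edgeR called 0 at an adjusted P under 0.05, as it called 0% of the 16429 genes. At an unadjusted P under 0.05 it took 3 members (Bcl2a1a, Bcl2a1d and Bcl2l1), all higher in Trpc1-/-, where 1643 genes (10.0%) met that level and 4.51% met it with a higher value. Over all genes DESeq2 called 294 and limma-voom 1. DESeq2 called 2 members (Bcl2a1a and Bcl2a1d), both higher, against 1.79% of the 16417 genes for which it gave an adjusted P and 0.962% called higher. That call was kept in 7 of 13 DESeq2 fits for Bcl2a1a and in 8 of 13 for Bcl2a1d. For both it was lost within the first range of library numbers and without WT replicate 2, Trpc1-/- replicate 1 or Trpc1-/- replicate 3, and for Bcl2a1a also without WT replicate 4. With the replicate block, a fit of 6 samples without WT replicate 4, DESeq2 gave neither an adjusted P. Bcl2l1 was called in 2 of 13 DESeq2 fits, those without WT replicate 1 and without Trpc1-/- replicate 2. The groups did not overlap for 4 members, all higher in Trpc1-/-, against 13.6% of all genes in either direction and 7.15% higher. Since members were selected on this comparison, nothing is read from these counts.

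The rest of the family was listed by name and carries the test over all genes, but the lists were made with earlier results of these samples known, so the calls below are not independent of them. Of the 18 further family genes listed, 12 were tested, 6 with a higher and 6 with a lower mean in Trpc1-/-, and their median logFC was -0.02 beside -0.01 for all tested genes. None had an adjusted P under 0.05 by edgeR, 1 had an unadjusted P under 0.05, and DESeq2 called 1. That gene was Bnip3l (NIX), a mitochondrial member that marks mitochondria for removal as red cells mature. Bnip3l was at 179, 216, 231 and 222 CPM in WT replicates 1 to 4 and at 308, 273 and 312 CPM in Trpc1-/- replicates 1 to 3.

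Every Trpc1-/- sample of Bnip3l lay above every WT sample, with means of 212 ± 23.2 CPM (SD, n = 4) and 298 ± 21.4 CPM (SD, n = 3). Its logFC of 0.49 (SE 0.11) came with an adjusted P of 0.395 by edgeR and of 0.00407 by DESeq2, which called it in 9 of 13 fits in all. With the replicate block (which leaves out WT replicate 4) and without WT replicate 2, Trpc1-/- replicate 1 or Trpc1-/- replicate 3 the call was lost, and the largest adjusted P by DESeq2 over all fits was 0.194. Its paralog Bnip3 had a logFC of -0.06 (SE 0.09), and of -0.12 (SE 0.06) without WT replicate 1, within -0.12 to -0.02 over the alternatives. For Bnip1, Bnip2 and Bcl2l12 the logFC stood at 0.01 (SE 0.08), 0.01 (SE 0.09) and -0.06 (SE 0.09), and those of Bnip1 and Bnip2 were -0.01 (SE 0.07) and -0.04 (SE 0.06) without WT replicate 1. Over the alternatives Bnip1 ran from -0.05 to 0.04, Bnip2 from -0.05 to 0.09 and Bcl2l12 from -0.12 to -0.03. Bcl2l13, a mitophagy receptor, had a logFC of 0.17 (SE 0.08), from 0.11 to 0.20 over the alternatives.

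Bcl2l2 (BCL-W), the one other survival member that was tested, had 23.6, 21.4, 20.7 and 19.6 CPM in WT and 17.5, 20.5 and 15.8 CPM in Trpc1-/-. Its logFC of -0.25 (SE 0.11; adjusted P by edgeR 0.499) was opposite in sign to that of Bcl2l1, and ran from -0.36 to -0.17 over the alternatives. The effector Bok had a logFC of -0.07 (SE 0.15), which was -0.15 (SE 0.12) without WT replicate 1 and ran up to 0.04, without WT replicate 2. The BH3-only genes Bad, Bbc3 (PUMA), Pmaip1 (NOXA) and Bmf stood at a logFC of 0.04 (SE 0.14), -0.19 (SE 0.17), 0.21 (SE 0.26) and -0.06 (SE 0.06). Without WT replicate 1, Bad was at -0.07 (SE 0.09), Bbc3 at -0.29 (SE 0.13) and Pmaip1 at 0.04 (SE 0.18). Over the alternatives Bad ran from -0.07 to 0.22 and Bbc3 from -0.29 to 0.02, each with both signs, Pmaip1 from 0.04 to 0.46 and Bmf from -0.12 to -0.03. Bcl2l10, Bcl2a1c, Bik, Hrk, Bcl2l14 and Bcl2l15 were under the count filter.

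**Figure D3:**
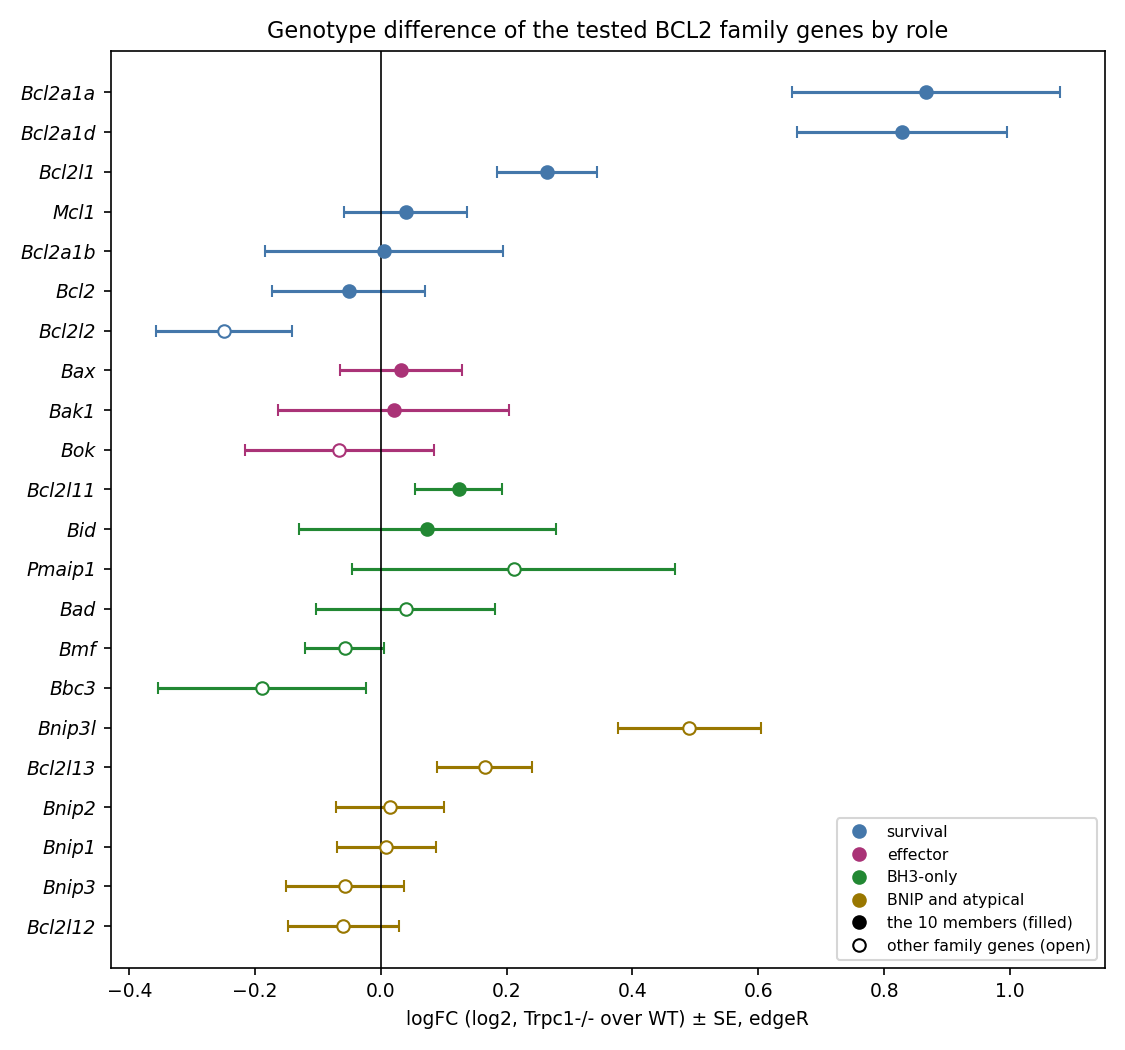
logFC (x axis, log2 of Trpc1-/- over WT) with its SE for each tested family gene, coloured by role, with the 10 members as filled and the 12 other genes as open points. Bcl2a1a and Bcl2a1d lie farthest to the right at 0.87 and 0.83, followed by Bnip3l at 0.49, and Bcl2l2 lies farthest to the left at -0.25.

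Over all 11 pathway lists, 72 of 79 genes were tested, 35 with a higher and 37 with a lower mean in Trpc1-/-. The median logFC was 0.00. By edgeR 0 of them had an adjusted P under 0.05, and 5 had an unadjusted P under 0.05, 3 higher and 2 lower, where 10.0% of all genes met that level. DESeq2 called 2, Bnip3l and Cdkn1a. The 3 higher were Bnip3l, Cycs and Ccng1, and the 2 lower were Cdkn1a and Csf2ra, where Ccng1 is named after its value was seen.

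Of the 10 genes of the apoptosome and caspases, which act after the mitochondrial pore, 7 had a higher and 3 a lower mean in Trpc1-/-, with a median logFC of 0.10. Cycs, the gene for cytochrome c, averaged 36.1 ± 5.87 CPM over the WT samples (SD, n = 4) against 45.8 ± 3.65 CPM for Trpc1-/- (SD, n = 3). This was a logFC of 0.34 (SE 0.14; adjusted P by edgeR 0.479). Of the 12 genes for mitochondrial release and inhibitors of apoptosis, 10 had a higher mean, with a median logFC of 0.14. Birc5 (survivin) had the largest logFC at 0.22 (SE 0.11; adjusted P by edgeR 0.525), which ran from 0.11 to 0.31 over the alternatives. WT replicate 1 was the lowest library for several of these 12 genes and the highest for others. The median logFC and the counts of higher and lower means of each list are not given without that library, which may carry part of them. Among 7 tested death receptor genes 3 had a higher mean, and Tnfrsf10b had the largest difference at -0.33 (SE 0.22), which ran from -0.50 to -0.16 over the alternatives.

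NF-kB and GM-CSF signalling induce Bcl2a1 in blood cells, and their genes were listed for that reason. Of 13 NF-kB genes, 2 had a higher and 11 a lower mean in Trpc1-/-, with a median logFC of -0.06, beside 8525 of 16429 lower and a median of -0.01 over all genes. None of the 13 had an unadjusted P under 0.05 by edgeR, and Ikbkb had the largest difference at -0.20 (SE 0.10; adjusted P by edgeR 0.530). Of 5 genes for the receptors of GM-CSF, IL-3 and IL-5, 1 had a higher and 4 a lower mean. The higher one was Il5ra, for the IL-5 receptor, which is named after its value was seen. In CPM it was at 1.22 in WT replicate 1, 6.05 to 7.33 in the other WT samples and 4.10 to 6.72 in Trpc1-/-. Csf2ra, the alpha chain that binds GM-CSF, was at 61.9, 66.4, 63.4 and 66.1 CPM in WT and at 56.9, 49.2 and 56.8 CPM in Trpc1-/-. Its groups did not overlap, and at a logFC of -0.25 (SE 0.08) the adjusted P was 0.419 by edgeR and 0.130 by DESeq2. Of 13 DESeq2 fits 1 called it, without WT replicate 1 (adjusted P by DESeq2 0.0321).

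The p53 axis, through which PUMA, NOXA and BAX are induced, gave 3 genes with a higher and 4 with a lower mean, with a median logFC of -0.05. Cdkn1a (p21), a cell cycle inhibitor, was at 19.8, 15.1, 13.0 and 10.7 CPM in WT replicates 1 to 4 and at 9.52, 9.03 and 7.35 CPM in Trpc1-/- replicates 1 to 3. All 3 Trpc1-/- samples lay below the WT samples, which spread widely. At a logFC of -0.76 (SE 0.21) its adjusted P was 0.396 by edgeR and 0.0471 by DESeq2. That call by DESeq2 was lost with no filter and without WT replicate 2 or 3 or any one Trpc1-/- sample, with an adjusted P of up to 0.577. Among 6 partners of BCL2 on the ER and in autophagy, 3 had a higher and 3 a lower mean, and Itpr1, a calcium release channel that BCL2 binds, had the largest difference at -0.23 (SE 0.12; adjusted P by edgeR 0.540), or -0.13 (SE 0.07) without WT replicate 1 and down to -0.33 over the alternatives.

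Levels of different genes were compared per length, as counts per kilobase of exon scaled to the same total in each sample (TPM). In WT, Mcl1 was highest at 101 ± 22.6 TPM (SD, n = 4), followed by Bcl2l1 at 27.5 ± 5.44, Bak1 at 17.1 ± 6.02, Bax at 14.8 ± 3.66, Bid at 9.68 ± 3.56 and the Bcl2a1 sum at 9.27 ± 2.72. Bcl2 at 4.30 ± 0.672 and Bcl2l11 at 3.32 ± 0.477 closed the order. The WT ranges of Mcl1 and Bcl2l1, and of the Bcl2a1 sum and Bcl2, did not overlap, and those of each other pair of neighbours did. Within samples, Bcl2l1 was above Bak1, Bax above Bid and Bcl2 above Bcl2l11 in all 4 WT samples, and Bak1 was above Bax and Bid above the Bcl2a1 sum in 3, all but WT replicate 1. Mcl1 was 10.9 times the Bcl2a1 sum in WT.

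On the same scale the 3 paralogs together stood above Bcl2, although each CPM of Bcl2 exceeded theirs, because the annotated Bcl2 exons are far longer. Bcl2a1b alone was at 5.89 ± 1.83, Bcl2a1a at 1.78 ± 0.577 and Bcl2a1d at 1.61 ± 0.333 TPM in WT (SD, n = 4). In Trpc1-/- the order was the same except that the Bcl2a1 sum, at 11.2 ± 2.76 (SD, n = 3), stood before Bid at 9.34 ± 2.23. Of the summed TPM of the paralogs, Bcl2, Bcl2l1 and Mcl1, without Bcl2l2, the paralogs made up 6.41% ± 0.673 in WT and 7.76% ± 0.311 in Trpc1-/-. Mcl1 was at 67.4 TPM in WT replicate 1 and at 112 to 113 TPM in the other WT samples, and at 124, 90.0 and 79.2 TPM in Trpc1-/- replicates 1 to 3. Bcl2l1 was at 19.7 to 31.3 TPM in WT and at 25.8 to 39.0 TPM in Trpc1-/-. In TPM the groups thus overlapped for Bcl2l1, and also for the Bcl2a1 sum, Bcl2l11 and Bnip3l, unlike in CPM. A gene's length is the same in every sample, so this difference comes from the scaling of the samples. TPM uses each sample's own total, without the TMM factors. The groups of Bcl2a1a and Bcl2a1d did not overlap on either scale.

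**Figure D4:**
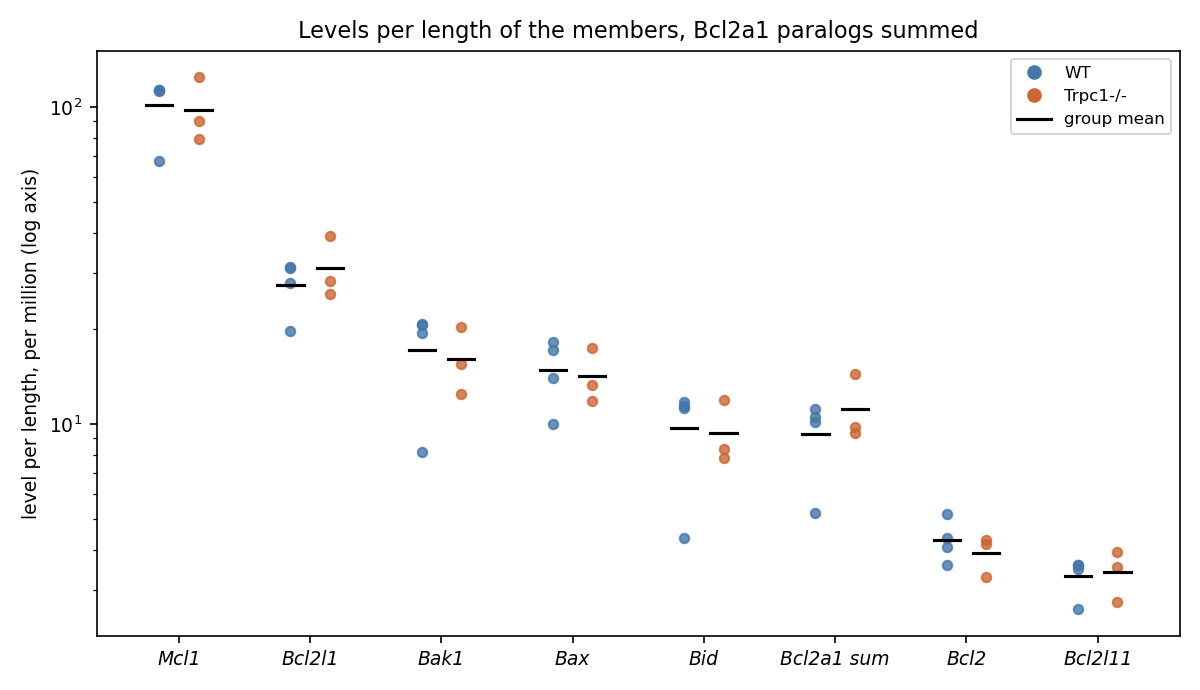
Level per length (y axis, TPM, log axis) of the members in each WT (blue, n = 4) and Trpc1-/- sample (orange, n = 3), with the group mean as a line and the Bcl2a1 paralogs summed. Mcl1 stands at a WT mean of 101 and Bcl2l11 at 3.32, with the Bcl2a1 sum between Bid and Bcl2.

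Genes whose level went most like the Bcl2a1 sum over the 7 samples were Ppil4 (Pearson r of log2 CPM 0.997), Taf12 (0.995), Rps20 (0.994), Med19 (0.993) and Clp1 (0.993). In all, 1376 of 16426 genes (8.38%) reached an r of 0.9, and 570 did without WT replicate 1, with 2 of those 5 genes still among the 5 highest. On deviations from the group means, the highest were Chil5 (0.998), Crlf2 (0.998), Scnm1 (0.997), Taf12 (0.997) and Gm11223 (0.997), and 2489 genes reached 0.9. Among the members, r with the sum over the 7 samples was 0.857 for Bcl2l1, 0.785 for Mcl1, 0.768 for Bid and 0.676 for Bak1. It was 0.520 for Bax, 0.254 for Bcl2l11 and -0.43 for Bcl2. On deviations from the group means the order was another, with 0.940 for Mcl1, 0.936 for Bid, 0.881 for Bak1 and 0.662 for Bcl2l1. There Bax was at 0.586, Bcl2 at -0.48 and Bcl2l11 at -0.64. WT replicate 1 was the lowest of the 7 samples for the sum and for Mcl1, Bid, Bak1 and Bcl2l1. The r values of the members may rest on that library, and they are not given without it. The points share their library and its depth, and the values describe these 7 samples.

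Marker genes of 14 cell types were summed in each sample to set beside the paralogs, and their part in the result was not tested. Neutrophil markers, of which 12 of 12 were measured with S100a9 the most abundant, summed to 5753, 14127, 16160.0 and 17824 CPM in WT replicates 1 to 4 and to 16425, 13185 and 17243 CPM in Trpc1-/-. As with the Bcl2a1 sum, WT replicate 1 was the lowest sample, but the other samples of the groups overlapped. Macrophage and monocyte markers (11 of 11, led by Ly6c2) gave 691, 1141, 1201 and 1205 CPM in WT and 1209, 1079.6 and 1213 CPM in Trpc1-/-. Mast cell and basophil markers (4 of 6, led by Mcpt8, with Mcpt4 and Tpsb2 under the filter) gave 17.7, 40.3, 41.3 and 36.9 CPM in WT and 63.0, 36.7 and 43.2 CPM in Trpc1-/-. Both lists overlapped between the groups.

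Erythroid markers were the one list whose sums did not overlap. All 10 were measured, led by the globin gene Hbb-bs, and they summed to 18501, 31908, 35679 and 28822 CPM in WT replicates 1 to 4 and to 45703, 41200.0 and 56586 CPM in Trpc1-/- replicates 1 to 3, with all 10 genes higher on average in Trpc1-/-. The ratio of the means was 1.66, beside 1.30 for the Bcl2a1 sum, 1.20 for Bcl2l1 and 1.41 for Bnip3l. The part of these erythroid genes in the values of Bcl2l1, Bnip3l and the paralogs was not tested.

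Chondrocyte markers (9 of 9, led by Col2a1) summed to 5441, 5156, 5073 and 4900.3 CPM in WT and to 2857, 5215 and 3126 CPM in Trpc1-/-. Trpc1-/- replicate 2 stood with the WT samples, and the other Trpc1-/- samples below them. By CPM the same replicate had the lowest Bcl2a1a, Bcl2a1b, Bcl2a1d, Bcl2l1, Mcl1, Bax and Bid level of its group. It had the highest Bcl2 and Bcl2l11 level, with Bak1 between the others. Osteoblast and osteocyte markers (6 of 6, led by Col1a1) gave 13547, 9627, 8379 and 7289.8 CPM in WT and 5755, 10021 and 5932 CPM in Trpc1-/-. Mean sums in WT and Trpc1-/- were 56.8 and 58.0 CPM for dendritic cells (5 of 6 genes, led by Siglech), 193 and 236 CPM for B cells (6 of 6, Cd79b), 33.5 and 38.8 CPM for T and NK cells (7 of 7, Nkg7), and 570.0 and 593 CPM for megakaryocytes (5 of 5, Ppbp). They were 533 and 513 CPM for osteoclasts (6 of 6, Ctsk), 185 and 178 CPM for endothelium (5 of 5, Pecam1), and 144 and 202 CPM for adipocytes (5 of 5, Fabp4). Skeletal muscle markers (5 of 5, Myh4) gave 973, 186, 147 and 54.0 CPM in WT and 328, 486 and 838 CPM in Trpc1-/-, so that WT replicate 1 alone was above the Trpc1-/- samples. Without that library the muscle and adipocyte sums were higher and the endothelial sums lower in Trpc1-/- with no overlap, beside the erythroid ones. No listed marker was at 0 in all samples.

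**Figure D5:**
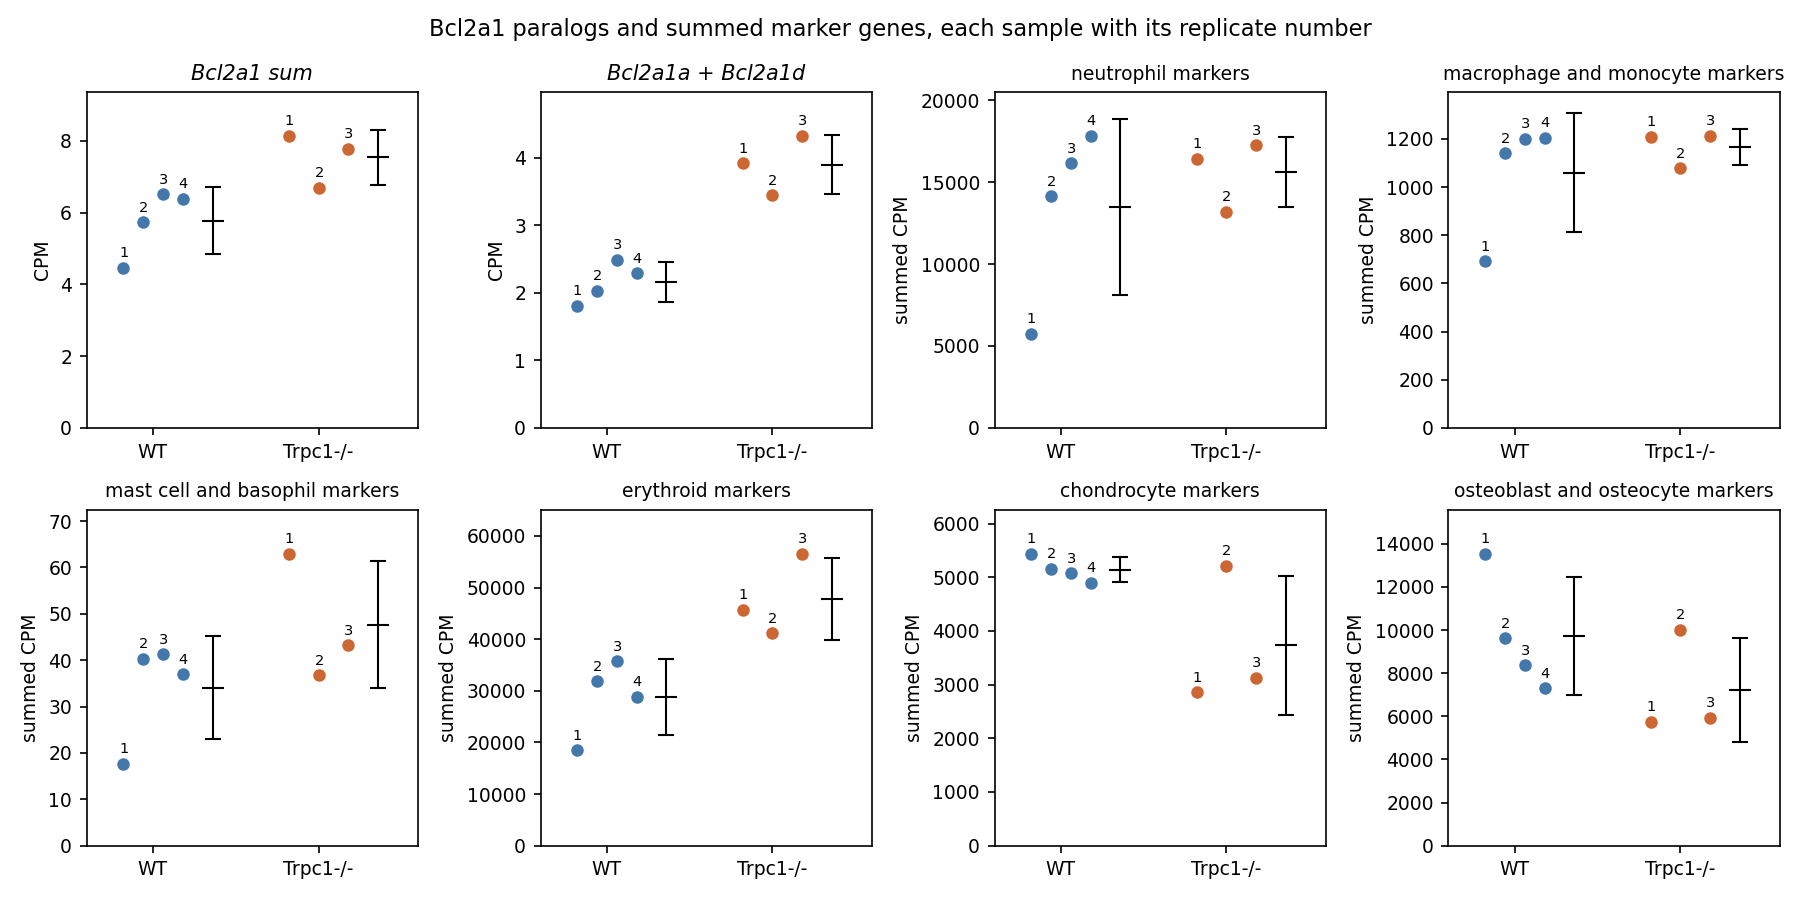
Level of the Bcl2a1 sum, of Bcl2a1a with Bcl2a1d, and of 6 summed marker lists (y axes, CPM or summed CPM) in WT (blue, n = 4) and Trpc1-/- samples (orange, n = 3), numbered by replicate, with the mean ± SD beside the points. The erythroid markers are the one list shown without overlap, from 18501 to 35679 in WT and from 41200.0 to 56586 in Trpc1-/-.

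The paralogs share their chromosome with the targeted gene. Trpc1 lies at chr9:95705082-95750375, 6.97 Mb after Bcl2a1d, 6.74 Mb after Bcl2a1a and 6.50 Mb after Bcl2a1b. The nearest tested genes around them were therefore read as well. Mthfsl, next to Bcl2a1d, was at 7.59, 7.64, 7.33 and 9.97 CPM in WT and at 10.6, 9.99 and 12.3 CPM in Trpc1-/-, without overlap, and Mthfs, next to Bcl2a1b, was at 4.996, 6.28, 6.96 and 8.49 CPM in WT and at 8.38, 8.74 and 9.80 CPM in Trpc1-/-, with overlap. The logFC was 0.43 (SE 0.14) for Mthfsl and 0.42 (SE 0.17) for Mthfs, with adjusted P values of 0.424 and 0.487 by edgeR. Over the alternatives they ran from 0.34 to 0.54 and from 0.31 to 0.67.

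Between Bcl2a1d and Bcl2a1a, the transcript 9330159M07Rik had a logFC of 0.01 (SE 0.14), and farther out Tmed3, Ctsh, Gm37226 and 9430037G07Rik had 0.02 (SE 0.16), -0.20 (SE 0.16), 0.03 (SE 0.38) and 0.25 (SE 0.13). Of these 9430037G07Rik had no overlap, with each Trpc1-/- sample higher. Without WT replicate 1, Tmed3 was at -0.12 (SE 0.07), Ctsh at -0.33 (SE 0.07), Gm37226 at 0.32 (SE 0.32) and 9330159M07Rik at 0.06 (SE 0.14). Over the alternatives 9330159M07Rik ran from -0.06 to 0.10, Tmed3 from -0.12 to 0.23 and Gm37226 from -0.31 to 0.32, each with both signs, Ctsh from -0.33 to -0.02 and 9430037G07Rik from 0.18 to 0.28. Any part of the position near Trpc1 in these values goes with genotype in all 7 samples. It cannot be told apart from the loss of Trpc1 here and was not tested.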

How the data were processed

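RNA-Seq libraries were made from ribosomal RNA-depleted, stranded total RNA. Per the labels and the Methods, the authors used Cutadapt 2.5 for adapters, HISAT2 2.1.0 for alignment to GRCm38 and StringTie 2.0.3 for coverage. The deposited values are estimated counts of genes, derived from the coverage, whole numbers that rounding left unchanged and that are not normalized. All 7 sample columns were used. The members and lists were chosen with earlier results of these data known.

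Of 55401 gene IDs, 55141 matched GENCODE M21, which gave positions, exon lengths and transcript sequences. Promoter sequences are from RefSeq (GRCm38.p6), and all 10 members had one. In R 4.3.3, genes above 1 CPM in 2 or more samples were scaled by TMM. Genotype, the single term of the model, was tested in edgeR 4.0.16 by quasi-likelihood, and P values were adjusted by Benjamini-Hochberg over 16429 genes, with a threshold of 0.05. SEs of logFC came from the F statistic. DESeq2 1.42.0 (default settings) and limma 3.58.1 (voom) were run on the same genes, and DESeq2 gave no adjusted P for 12. The fits were first tested on simulated counts with known changes. These held no outlying library such as WT replicate 1, so that test does not bear on its effect. Per-length levels used summed exon lengths, and r used log2 CPM with a prior count of 1. The samples are separate pools of mice. Named genes are the members, Trpc1, every other family gene, of the other pathway lists those called by edgeR or DESeq2 or with the smallest P or largest logFC, the 5 genes most like the Bcl2a1 sum by each measure, and the 3 nearest tested genes on each side of each paralog. Immunostaining and cultured cells were not analysed here.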

Additional observations from a re-analysis of the deposited data

Results flagged for a closer look

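Each value was looked at for a WT sample far from the other 3, measured by its gap to the nearest sample over the range of the group. Of 62 values 12 went past the critical value of Dixon's ratio, a level that chance reaches in about 1 in 20 groups, and 10 of the 12 were in WT replicate 1. The values are not independent, as they hold CPM and TPM of the same genes and sums of genes. The count of 12 is therefore not read against that rate. In that library Bak1 was at 20.2 CPM and Bid at 15.9 CPM, each below the other WT samples. Its macrophage and monocyte markers were low at 691 CPM and its skeletal muscle markers high at 973 CPM. In TPM the same library was low for Mcl1 (67.4 TPM), Bak1 (8.15), the Bcl2a1 sum (5.24), Bid (4.35), Bcl2a1b (3.15) and Bcl2l11 (2.61). All genes of a library share its scale there, so these values are not separate findings. By CPM the Bcl2l11 level of that library, at 21.6, was the highest of the WT samples. The other values far from their group were Bik in WT replicate 2, at 0.974 CPM, and Hrk in WT replicate 3, at 0.0244 CPM, which is 3 counts, beside 0 in every other library.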

How the results depend on the processing

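The logFC of Bcl2a1a, Bcl2a1d, Bcl2l1 and Bcl2l11 kept its sign under all 16 alternatives, at 0.75 to 1.11, 0.77 to 0.92, 0.21 to 0.31 and 0.07 to 0.15. Each of the other 6 members took both signs. No member moved by more than 1 SD of its replicates. Trpc1 ran from -0.54 to -0.37, Bnip3l from 0.41 to 0.60, Cdkn1a from -1.01 to -0.59, Cycs from 0.23 to 0.48, Csf2ra from -0.31 to -0.19 and Ikbkb from -0.25 to -0.15. The summed paralogs stayed between 0.28 (without WT replicate 1) and 0.56 (first range of library numbers), and leaving out samples gave 0.28 to 0.45. Taken alone, Bcl2a1a gave 0.87, Bcl2a1b 0.0048 and Bcl2a1d 0.83. Bcl2a1a with Bcl2a1d, chosen after seeing the data, gave 0.85, so the sum depends on which copies enter.

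Calls by edgeR numbered 0 of 16429 (1643 at an unadjusted P under 0.05), by DESeq2 294 and by limma-voom 1. Leaving out samples gave 0 to 49 by edgeR, with 49 without WT replicate 1, and 37 (without Trpc1-/- replicate 3) to 890 (without WT replicate 1) by DESeq2. It gave 62 without WT replicate 2, 134 without WT replicate 3 and 79 without Trpc1-/- replicate 1. DESeq2 called 188 with no filter and 184 in the first range of library numbers, where 53 were higher against 158 of 294 with all samples. The 400 calls with that range as a covariate had 128 higher. With library totals alone, 194 of 1558 genes at an unadjusted P under 0.05 were higher, against 741 of 1643. On deviations from the group means, same-numbered samples had correlations of -0.348, -0.205 and -0.044, and other pairs ranged from -0.332 to 0.364. These values gave no sign of pairing by replicate number but are too few to settle it. The fit with the replicate block also leaves out WT replicate 4, which alone gave 0 calls by edgeR, 283 by DESeq2, 6 pathway genes and 0.43 for the summed paralogs. With block and omission together edgeR called 0 and DESeq2 53, 2 pathway genes had an unadjusted P under 0.05 in place of 5, and the summed paralogs gave 0.44. Leaving out samples gave 3 to 8 pathway genes. The cause of these shifts was not tested.

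The ratio of Mcl1 to the summed paralogs per length was 10.6 to 11.3. Between 570 and 2124 genes reached an r of 0.9 with a sample left out. In alternatives chosen after seeing the data, 1 to 6 marker lists did not overlap with a sample left out, and 3 did not in the first range of library numbers (B cell, T and NK cell, erythroid). The 6 without Trpc1-/- replicate 2 were macrophage, mast cell, erythroid, chondrocyte, osteoblast and adipocyte markers, and the 4 without WT replicate 1 erythroid, endothelial, adipocyte and muscle markers. The 3 paralogs have 38 to 517 counts a library, so differences of a few counts were not detectable.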
